A study of Mus musculus with 10 samples.

Results

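The CD3 complex and the T-cell coreceptors were followed through murine CD8+ T cells and keratinocytes by RNA sequencing. The group comprised 10 genes of the 25814 in the deposited gene tables, chosen by name: Cd3d, Cd3e, Cd3g, Cd247, Cd8a, Cd8b1, Cd4, Lck, Zap70 and Cd5. All 10 were listed in each library and all 10 passed the filter on low counts in every comparison. The T-cell receptor recognizes peptides on MHC molecules but has no signaling domain of its own. It depends on the CD3 chains, encoded by Cd3d, Cd3e and Cd3g, and on the zeta chain, encoded by Cd247, whose cytoplasmic tails carry the ITAM motifs. CD8, a dimer of the products of Cd8a and Cd8b1, binds MHC class I, while CD4 binds MHC class II, and both bring the kinase LCK to the receptor. LCK phosphorylates the ITAMs, ZAP70 docks to them, and CD5 dampens the signal. Mature conventional T cells carry either CD8 or CD4, and keratinocytes, the epithelial cells of the epidermis, are not known to make this complex.

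There were 10 libraries in 5 groups of 2, from cells of adult C57/B6 mice. Keratinocytes were primary cells from tail skin, grown in serum-free low calcium medium, and were lysed without T cells or once co-cultured CD8+ T cells had been washed off. T cells were splenic cells selected with CD8 microbeads and, in all T-cell groups, first stimulated with αCD3/CD28 Abs over 1 d. As the labels have it, they were collected then (activated T cells), after 1 d more in keratinocyte medium without keratinocytes (T cells in keratinocyte medium), or after 1 d more with keratinocytes (co-cultured T cells). By the paper's account, both later T-cell cultures were kept in keratinocyte medium with a smaller part of X-vivo, the T-cell medium. It does not say whether keratinocytes alone received X-vivo, so in the keratinocyte comparison this medium and T-cell contact cannot be told apart. The labels of the T cells give 1 d of co-culture, those of the keratinocytes give no time, and the design text gives a shorter one, a difference that could not be settled. The paper can be read as keeping activated T cells in X-vivo medium for a further day that the labels do not give, which could not be settled, and in both comparisons with activated T cells the time in culture and the medium cannot be told apart. Keratinocytes with and without T cells, like the activated T cells, carry replicate numbers in the labels, whereas the numbers 1 and 2 of the other T-cell libraries only name them. None of the labels says that libraries of a group came from separate animals, so p-values measured the spread between 2 libraries, which may be technical.

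Between 12864931 and 18019609 reads fell on exons per library. Keratin and other keratinocyte markers, 12 genes in all, summed to 26940 to 30220 RPKM (exon reads scaled by exon length and by library size) in the keratinocyte libraries. They summed to 7.90 to 23.7 RPKM in T cells that had not met keratinocytes and to 169.5 and 290.1 RPKM in co-cultured T cells. Libraries of keratinocytes labelled as alone also held T-cell transcripts, and for this reason values were given library by library throughout. In such bulk RNA, fewer cells of a type and less RNA per cell cannot be told apart.

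Cd3g, Cd3d and Cd3e lie side by side on chromosome 9 (GRCm38). Cd3g (chr9:44969572-44980431, minus strand) and Cd3d (chr9:44981786-44987339, plus strand) point away from each other and are 1354 bases apart. Cd3e (chr9:44998740-45009627, minus strand) lies 11400 bases beyond Cd3d, with its 3′ end toward Cd3d. On chromosome 6, Cd8b1 (chr6:71322788-71337494) and Cd8a (chr6:71373427-71379173), both on the plus strand, are 35932 bases apart, and Cd4 (chr6:124864692-124888221) is on the minus strand. Promoters of 8 of the 10 genes were found in the RefSeq table (GRCm38.p6), and those of the CD3 cluster and of Cd8a are shown here because these genes parted in the keratinocyte libraries. Each runs 5′ to 3′ on the strand of the gene, 250 bases before and 50 after the start, and capitals mark E-box letters (CAGCTG and its variants CACCTG and also CAGGTG), a kind of site read by E proteins of lymphocytes.
Cd3g (chr9:44980382-44980681, minus strand): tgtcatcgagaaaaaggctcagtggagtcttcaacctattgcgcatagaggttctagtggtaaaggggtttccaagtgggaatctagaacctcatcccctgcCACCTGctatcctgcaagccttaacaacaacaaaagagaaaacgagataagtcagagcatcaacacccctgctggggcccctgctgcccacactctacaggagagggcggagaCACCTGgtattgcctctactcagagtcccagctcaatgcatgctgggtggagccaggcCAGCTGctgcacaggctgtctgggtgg
Cd3d (chr9:44981536-44981835, plus strand): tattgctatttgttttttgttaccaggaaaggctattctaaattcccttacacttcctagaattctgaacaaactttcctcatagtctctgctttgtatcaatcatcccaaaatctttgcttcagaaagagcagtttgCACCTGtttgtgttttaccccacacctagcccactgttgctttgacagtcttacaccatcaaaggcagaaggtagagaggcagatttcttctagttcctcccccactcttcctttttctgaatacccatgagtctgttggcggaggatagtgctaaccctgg
Cd3e (chr9:45009562-45009861, minus strand): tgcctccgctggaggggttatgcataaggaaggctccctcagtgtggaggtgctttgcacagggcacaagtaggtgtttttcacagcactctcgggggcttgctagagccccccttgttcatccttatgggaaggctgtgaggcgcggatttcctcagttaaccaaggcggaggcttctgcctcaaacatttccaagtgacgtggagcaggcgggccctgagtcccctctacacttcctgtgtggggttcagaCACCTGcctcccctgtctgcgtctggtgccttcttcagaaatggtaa
Cd8a (chr6:71373177-71373476, plus strand): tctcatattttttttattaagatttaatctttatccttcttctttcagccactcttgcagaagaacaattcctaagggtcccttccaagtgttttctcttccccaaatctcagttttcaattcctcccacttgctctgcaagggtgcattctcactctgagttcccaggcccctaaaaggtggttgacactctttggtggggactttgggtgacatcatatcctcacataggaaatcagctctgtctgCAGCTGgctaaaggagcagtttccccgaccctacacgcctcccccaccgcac
The Cd3g window held 3 such letter runs, and those of Cd3d, Cd3e and Cd8a held 1 each. Of 32851 RefSeq promoters of this length, 32.9% held at least 1. The Runx letters TGTGGT, which on the other strand read ACCACA and which 16.8% of all promoters held, were in none of these 4 windows. A match is a run of letters and was not tested as a site. The E-box and Runx letters were looked for on both strands, and the promoter matches did not overlap.

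By mean RPKM, Cd3g was the most abundant of the 10 transcripts in activated T cells and in both keratinocyte groups, while Cd8b1 led in T cells in keratinocyte medium and in co-cultured T cells, where the libraries of both genes overlapped. Cd3g had 138 and 344 RPKM in activated T cells, 468 and 513 in keratinocyte medium, and 509 and 420.1 after co-culture. In the keratinocyte libraries Cd3g had 34.8 and 126 RPKM without T cells and 44.25 and 247 after co-culture. Co-cultured keratinocytes of replicate 2 thus held more Cd3g than activated T cells of replicate 1, and the ranges of the cell types overlapped.

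Cd3d, the CD3 delta chain, had 109.9 and 230.0 RPKM in activated T cells, 341 and 426 in keratinocyte medium, and 371 and 349 after co-culture. Its keratinocyte values were 18.1 and 67.1 RPKM alone and 19.0 and 115 after co-culture. Both later T-cell groups were above both activated libraries, and the highest keratinocyte library exceeded the lowest T-cell library.

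Cd3e, the epsilon chain that pairs with gamma and with delta, had 112 and 133 RPKM in activated T cells, 234 and 123 in keratinocyte medium, and 193 and 113 after co-culture. Keratinocytes had 14.4 and 56.8 RPKM alone and 19.35 and 88.6 after co-culture. The T-cell groups overlapped with each other for Cd3e, and all 6 T-cell libraries were above all 4 keratinocyte libraries. Cd247, the zeta chain, had the lowest level per length of the CD3 transcripts in all groups, with 28.6 and 40.5 RPKM in activated T cells, 76.6 and 76.8 in keratinocyte medium, and 74.3 and 52.6 after co-culture. Cd247 in keratinocytes was at 2.89 and 11.5 RPKM alone and at 3.72 and 16.3 after co-culture, below every T-cell library.

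Cd8a, the CD8 alpha chain, had 176 and 110.0 RPKM in activated T cells, 334 and 219 in keratinocyte medium, and 312 and 209 after co-culture. In keratinocytes it had only 0.118 and 0.600 RPKM alone, from 7 and 32 exon reads, and 0.525 and 1.16 RPKM after co-culture, from 25 and 60 reads. No keratinocyte library came near a T-cell library. Cd8b1, the CD8 beta chain of cytotoxic T cells, showed the same separation, with 277 and 141 RPKM in activated T cells, 762 and 379.9 in keratinocyte medium, and 681 and 327 after co-culture. Its keratinocyte values were 0.107 and 0.871 RPKM alone, from 3 and 22 reads, and 0.799 and 2.00 RPKM after co-culture, from 18 and 49 reads. A count of 3 reads is the limit that a count of 0 allows and was taken as the floor. The level of Cd8b1 in replicate 1 of keratinocytes alone was at this floor, so it was seen there but not measured closely.

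Cd4, the MHC class II coreceptor, had 16.8 and 102 RPKM in activated T cells, 67.2 and 75.9 in keratinocyte medium, and 64.6 and 62.0 after co-culture. Keratinocytes held 11.4 and 43.5 RPKM of Cd4 alone and 15.0 and 84.45 after co-culture. The activated T cells differed 6.09-fold between their 2 libraries, the widest gap of any of the 10 genes within a T-cell group, and the keratinocyte range overlapped that of the T cells.

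Lck, the kinase carried by both coreceptors, had 204 and 255 RPKM in activated T cells, 297 and 293 in keratinocyte medium, and 271 and 215 after co-culture. In keratinocytes Lck was at 15.3 and 64.7 RPKM alone and at 19.85 and 108 after co-culture. All T-cell libraries lay within 1.46-fold of each other and above all keratinocyte libraries. Zap70, the kinase that reads phosphorylated ITAMs, was the steadiest of the 10 in T cells, with 95.3 and 101 RPKM when activated, 102 and 89.0 in keratinocyte medium, and 99.6 and 83.8 after co-culture. Keratinocytes had 6.41 and 21.5 RPKM of Zap70 alone and 6.95 and 37.95 after co-culture.

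Cd5, the inhibitory scavenger receptor, was the only gene of the 10 whose values in both later T-cell groups lay below the activated ones. It had 125 and 108 RPKM in activated T cells, 84.6 and 87.2 in keratinocyte medium, and 89.2 and 77.6 after co-culture. In keratinocytes Cd5 was at 8.84 and 33.0 RPKM alone and at 10.65 and 63.0 after co-culture, again below all T-cell libraries.

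**Figure D1:**
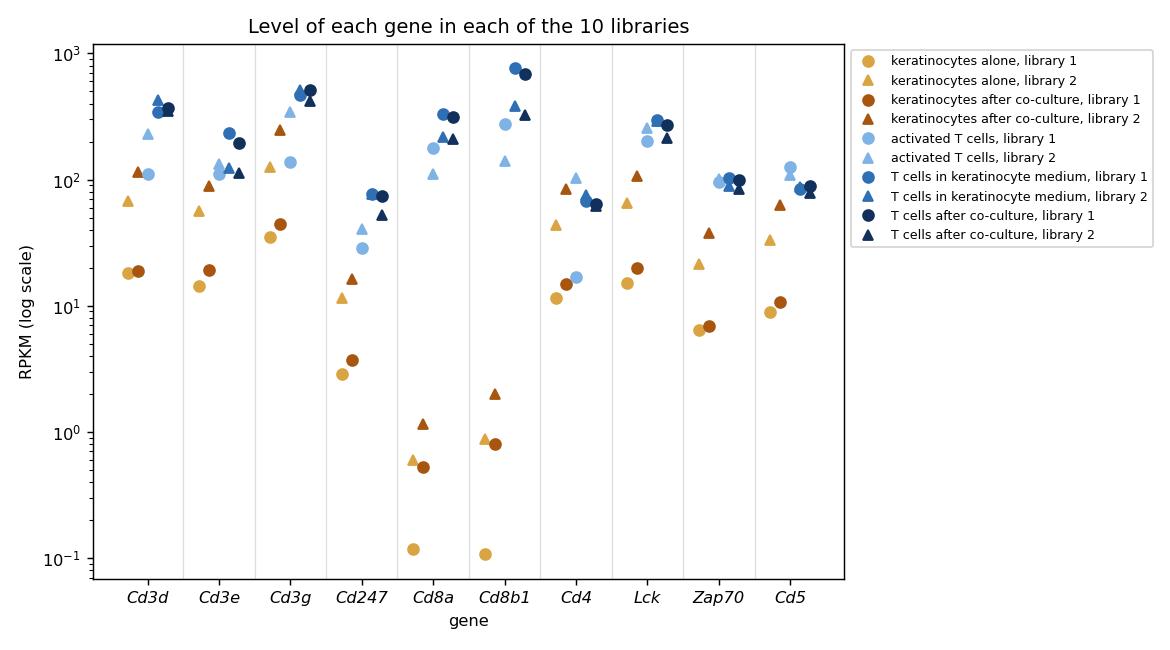
RPKM (log axis) of each of the 10 genes in each library, with circles for library 1 and triangles for library 2 of a group, in shades of orange for keratinocytes and of blue for T cells. Cd8a and Cd8b1 are at 0.107 to 2.00 RPKM in the keratinocyte libraries, while the other 8 genes reach 2.89 to 247 RPKM there, with the triangles above the circles.

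The keratinocyte libraries differed from the T-cell libraries in which of these transcripts they held. Cd8a and Cd8b1 together took 0.256% of the reads of the 10 genes in keratinocytes alone of replicate 1 (95% Wilson interval 0.139 to 0.470%) and 0.402% (0.309 to 0.525%) in replicate 2. After co-culture they took 1.10% (0.817 to 1.48%) and 0.474% (0.393 to 0.571%). In T cells the same share was 18.1 to 41.4%. The intervals cover counting error only, since reads were not counted as molecules. All 4 keratinocyte libraries were far below all 6 T-cell libraries in this share. Cd4 took 17.2 to 18.8% of the reads in keratinocyte libraries and 2.01 to 10.4% in T cells. The 4 CD3 transcripts took 46.8 to 48.9% in keratinocyte libraries and 23.9 to 41.1% in T cells.

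Relative to Cd3g, the level of Cd4 (RPKM over RPKM) was 0.329 and 0.345 in keratinocytes alone and 0.338 and 0.342 after co-culture. These 4 ratios lay within 1.05-fold, although the level of Cd3g itself spanned 7.10-fold over the same libraries. In T cells the ratio of Cd4 to Cd3g was 0.122 and 0.298 when activated, 0.144 and 0.148 in keratinocyte medium, and 0.127 and 0.148 after co-culture. Every T-cell ratio was below every keratinocyte ratio, and replicate 2 of the activated T cells was closest to them. The ratio of Cd5 to Cd3g was nearly as even in keratinocyte libraries, 0.241 to 0.262, against 0.170 to 0.910 in T cells. That of Cd8a to Cd3g was 0.00339 to 0.0119 in keratinocytes and 0.320 to 1.28 in T cells.

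**Figure D2:**
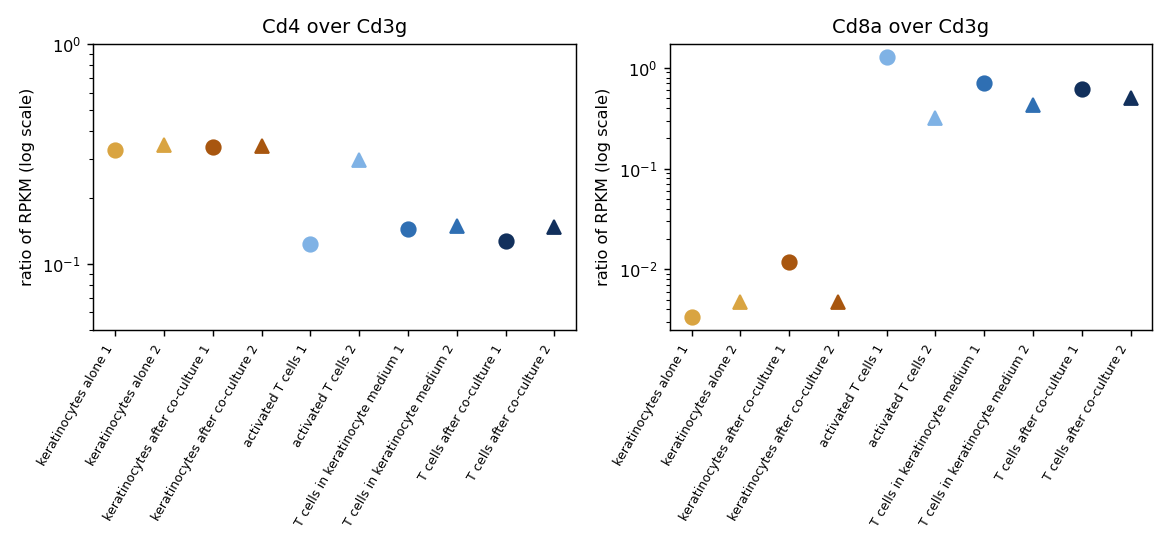
Ratio of RPKM (log axes) of Cd4 to Cd3g (left) and of Cd8a to Cd3g (right), 1 point per library. The keratinocyte libraries lie at 0.329 to 0.345 for Cd4 and at 0.00339 to 0.0119 for Cd8a, and the T-cell libraries at 0.122 to 0.298 and at 0.320 to 1.28.

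With the mean of the activated T cells as the reference, Cd4 reached 19.2 and 73.1% in keratinocytes alone and 25.1 and 142% after co-culture. Cd3g, the next highest, reached 14.4 and 52.4% alone and 18.4 and 102.5% after co-culture. Zap70 was at 6.52 and 21.8% alone and at 7.07 and 38.6% after co-culture. Cd8a stayed at 0.0822 and 0.419% alone and at 0.367 and 0.811% after co-culture, and Cd8b1 at 0.0510 to 0.958% over the 4 libraries. No test was made of these percentages. All 10 genes were higher in replicate 2 than in replicate 1 in both keratinocyte groups, with median folds of 3.88 alone and 5.44 after co-culture, where the median over all expressed genes was 0.947-fold and 0.898-fold. The mean percentage of Cd4 over the 4 libraries was 37.7% at the lowest when 1 library was left out, and 229.6% at the highest, without replicate 2 of the activated T cells. That of Cd3g ran from 28.4 to 82.1% over the same omissions. For both genes, replicate 2 of the activated T cells by itself had a higher RPKM than every keratinocyte library.

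**Figure D3:**
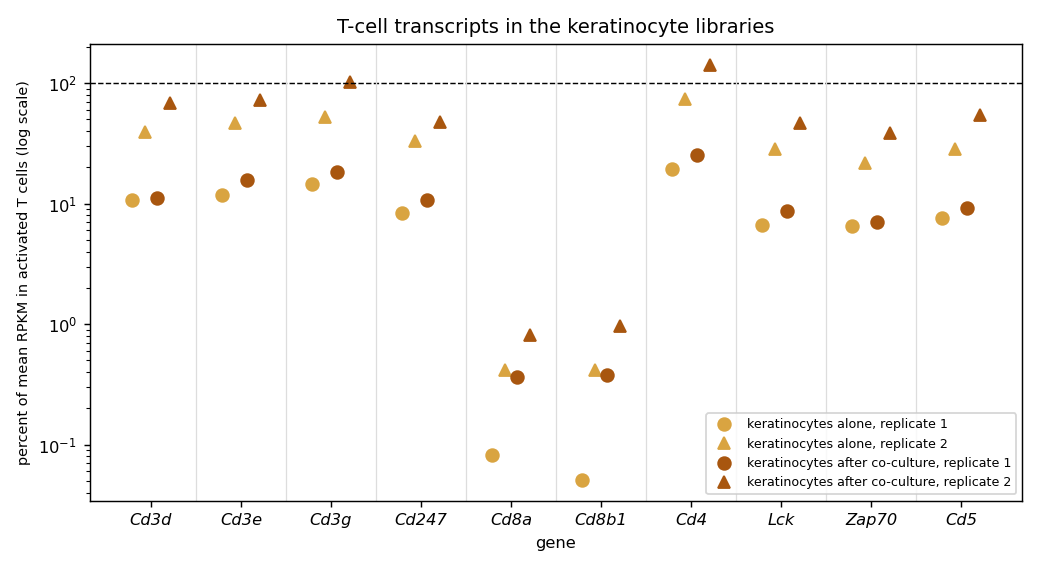
RPKM of each gene in each keratinocyte library as a percentage of its mean in activated T cells (log axis), with circles for replicate 1 and triangles for replicate 2. The dashed line marks the mean level of activated T cells, which Cd4 (142%) and Cd3g (102.5%) pass in co-cultured keratinocytes of replicate 2, although activated T cells of replicate 2 had more of both, while Cd8a and Cd8b1 stay below 0.958%.

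Marker lists were read beside these values. The CD4 lineage list (Cd4, Zbtb7b, Cd40lg and Foxp3) had 4 of 4 genes above the level of 3 reads in both libraries of keratinocytes alone, with sums of 37.95 and 79.0 RPKM, and sums of 39.3 and 110.9 RPKM after co-culture, none of the 4 being at 0. Zbtb7b, a transcription factor of the CD4 lineage, carried much of these sums, with 24.9 and 29.2 RPKM in keratinocytes alone and 21.8 and 12.7 after co-culture against 1.42 to 6.60 in T cells, and did not follow Cd4. In T cells the list summed to 21.2 and 128 RPKM when activated, 76.4 and 94.4 in keratinocyte medium, and 75.35 and 75.4 after co-culture. Its 4 genes were also above 3 reads in both libraries of co-cultured keratinocytes and of each T-cell group. The CD8 list (Cd8a, Cd8b1, Eomes and Runx3) summed to 1.05 and 4.71 RPKM in keratinocytes alone and to 2.19 and 9.79 after co-culture, against 274 to 1119 RPKM in T cells. Of this list, 3 of 4 genes were above 3 reads in both libraries of keratinocytes alone, and 4 of 4 after co-culture, so detection differed little between the lists. The myeloid and Langerhans list of 7 genes summed to 47.6 and 68.9 RPKM in keratinocytes alone, 37.55 and 64.3 after co-culture, and 15.4 to 67.6 in T cells, with Cd207, the marker of Langerhans cells, at 0 in all 10 libraries. Cd68, a lysosomal protein of macrophages, made up most of the sum in both libraries of keratinocytes alone and in replicate 1 after co-culture. It had 40.65 and 39.4 RPKM alone and 29.7 and 24.0 after co-culture, and was not higher in replicate 2. B-cell markers, 5 genes, summed to 0.531 to 3.85 RPKM in keratinocyte libraries and to 16.7 to 92.5 RPKM in T cells. The part of other cells in the levels of the CD3 genes and of Cd4 was not tested.

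Reads that cross exon borders showed whether the transcripts were spliced. For Cd3g, 41.6% of the exon reads spanned a junction in the pooled keratinocyte libraries (7724 reads) and 41.1% in T cells (37894 reads). For Cd4 the shares were 18.5% (8014 reads) and 17.6% (18536 reads), and for Cd3d 38.1 and 37.9%. Cd8a differed in the pooled reads. Its share was 25.8% of 124 reads in keratinocyte libraries (interval 18.9 to 34.2%) and 12.9% of 66370 reads in T cells (12.7 to 13.2%). By library the Cd8a share was uneven, with 42.9% of 7 reads and 37.5% of 32 reads in keratinocytes alone. After co-culture it was 0.0% of 25 reads in replicate 1, which went the other way, and 28.3% of 60 reads in replicate 2. Cd8b1 had 23.9% of 92 reads (16.4 to 33.6%) and 28.6% in T cells. Reads in introns made up at most 6.38% of the gene's reads for any of the 10 genes in keratinocyte libraries, the highest being Cd247. No source used here says that strand was used in counting, so antisense reads cannot be told apart.

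Keratinocytes with and without T cells were compared to ask whether contact with T cells left more of these transcripts with the keratinocytes. All 10 genes had higher fitted values after co-culture, but none passed the test, and 0 of the 10 had both co-cultured libraries above both libraries of keratinocytes alone, where 19.8% of all genes did. The difference was 1.59 ± 1.28 (SE) on the log2 scale for Cd8b1 and 1.31 ± 1.09 for Cd8a, the largest of the 10. For Cd4 it was 0.96 ± 1.05, for Cd3g 0.96 ± 1.03, for Cd5 0.92 ± 1.05 and for Cd247, the smallest, 0.57 ± 0.98. Over the 10 genes the median was 0.85, with adjusted p of 0.703 to 0.832 (edgeR quasi-likelihood test, Benjamini-Hochberg over 12515 genes), and the median of all genes was 0.02. The intervals were wide: for Cd3g the 95% interval ran from -1.70 to 3.62 on the log2 scale. In this comparison 0% of all genes were called, 901 genes (7.2%) having an unadjusted p under 0.05, none of them among the 10, and DESeq2 called 186 genes, also none of the 10. Without replicate 2 of the co-cultured keratinocytes the direction turned for 8 of the genes, Cd4 then being at -0.90. That fit set replicate 1 after co-culture against both replicates alone, of which replicate 2 was the higher for all 10 genes. Within replicate 1 the same 8 genes were 1.05 to 1.34 times as high after co-culture, and within replicate 2 1.42 to 1.96 times. No label says that equal numbers mark pairs. The values of Cd8a (0.53 to 2.95) and Cd8b1 (0.69 to 3.79) stayed above 0 whichever library was left out.

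T cells in keratinocyte medium were compared with activated T cells to follow the complex after the stimulus ended. Both libraries of Cd3d, Cd3g, Cd247, Cd8a, Cd8b1 and Lck, 6 of the 10, were above both activated libraries, where those of 22.1% of all genes were, and Cd5 was below, where 32.5% were. The difference on the log2 scale was 1.59 ± 0.47 for Cd8b1 (adjusted p = 0.0834, edgeR), 1.31 ± 0.42 for Cd3d (adjusted p = 0.101) and 1.29 ± 0.33 for Cd247 (adjusted p = 0.0548). It was 1.16 ± 0.45 for Cd3g (adjusted p = 0.162, edgeR) and 1.09 ± 0.34 for Cd8a (adjusted p = 0.0981). None of the 10 genes passed an adjusted p of 0.05 with edgeR, at which 6.54% of all 11863 genes were called (275 higher, 501 lower). At an unadjusted p under 0.05 these 5 of 10 had higher values, against 11% of all genes, and DESeq2 called 4 of them, Cd3d, Cd247, Cd8a and Cd8b1. Cd3e (0.67 ± 0.38), Lck (0.50 ± 0.29), Cd4 (0.38 ± 0.70) and Zap70 (0.10 ± 0.28) were nearer to 0, and Cd5 was at -0.29 ± 0.28. Without replicate 2 of the activated T cells 3 of the 10 were called, Cd3d, Cd3g and Cd4, and without replicate 1 of these none was and Cd4 fell to -0.39.

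Co-cultured T cells, set against the same activated T cells, gave values close to those in keratinocyte medium, and the 2 comparisons share their controls. Cd3d, Cd3g, Cd247, Cd8a and Cd8b1 were above both activated libraries, where 23.6% of all genes were, and Cd5 was below, where 33.9% were. The log2 difference was 1.45 ± 0.47 for Cd8b1 (adjusted p = 0.0877, edgeR), 1.26 ± 0.42 for Cd3d (adjusted p = 0.094), 1.11 ± 0.45 for Cd3g, 1.05 ± 0.34 for Cd8a and 1.05 ± 0.32 for Cd247 (adjusted p = 0.0778). None of the 10 was called by edgeR, at which 10.3% of all genes were, and 5 of 10 had an unadjusted p under 0.05 and higher values against 13.9% of all genes, while DESeq2 called Cd3d, Cd247, Cd8a and Cd8b1. Without replicate 2 of the activated T cells edgeR called Cd3d, Cd3g and Cd4. Cd5 was at -0.29 ± 0.28 and Zap70 at 0.09 ± 0.28.

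Co-cultured T cells against T cells in keratinocyte medium addressed how T cells with keratinocytes differed from those in keratinocyte medium without them. All 10 log2 differences were below 0, from -0.24 for Cd247 and Lck to -0.001 for Cd5, each with an adjusted p of 1.0 (edgeR), where 0.261% of all genes were called. At an unadjusted p under 0.05 there were 0 of the 10 against 3.45% of 11863 genes, and DESeq2 called none of the 10. Cd247, Cd4 and Lck had both co-cultured libraries below both others, where 13.1% of all genes did. The 95% interval for Cd8a ran from -0.82 to 0.74 and for Cd4 from -1.73 to 1.47.

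**Figure D4:**
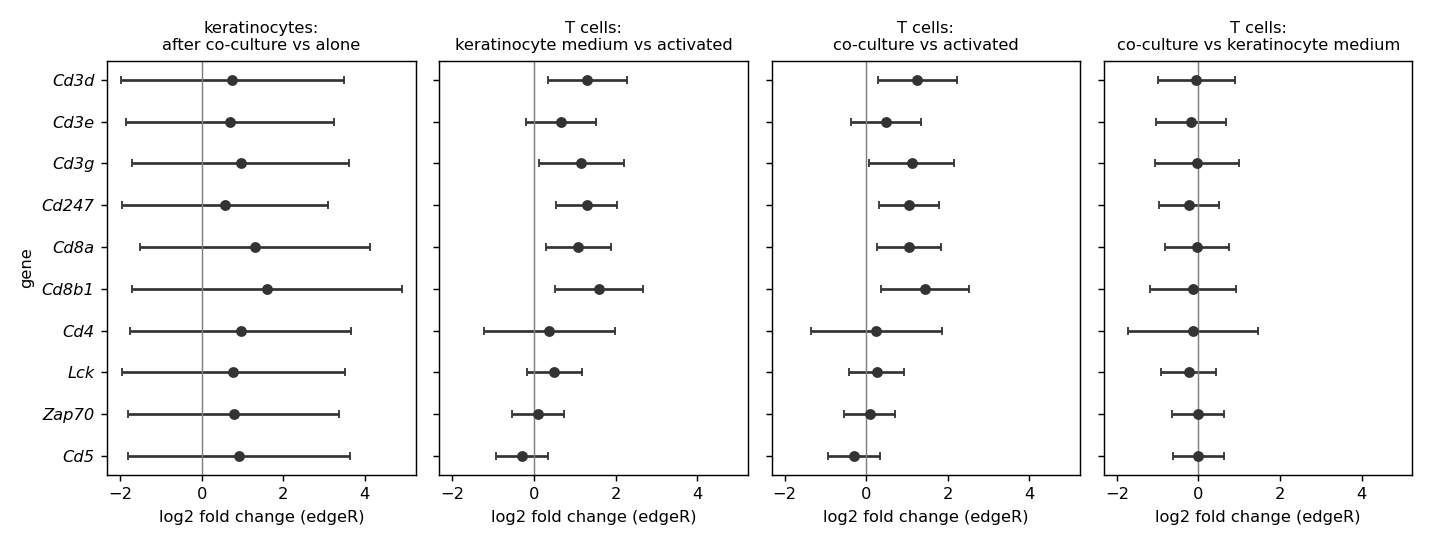
Log2 fold change from edgeR with its 95% interval for each of the 10 genes in 4 comparisons, 2 libraries per group. The keratinocyte intervals all cross 0, those of Cd3d, Cd3g, Cd247, Cd8a and Cd8b1 lie above 0 in both comparisons with activated T cells before adjustment, and all cross 0 between the later T-cell groups.

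Between cell types, Cd8a and Cd8b1 stood far apart from the other 8 genes. In activated T cells Cd8a was 8.47 ± 0.86 (log2) above keratinocytes alone (adjusted p = 0.00032, edgeR) and Cd8b1 8.57 ± 1.03 (adjusted p = 0.000619). Zap70 was 2.66 ± 0.81 higher (adjusted p = 0.0313), and these 3 were the only ones of the 10 called, where 13% of 13394 genes were called higher. Lck (2.37 ± 0.85), Cd5 (2.32 ± 0.83) and Cd247 (2.12 ± 0.79) had adjusted p of 0.057 to 0.0648. Cd3d (1.86 ± 0.89), Cd3e (1.63 ± 0.80), Cd3g (1.45 ± 0.87) and Cd4 (1.00 ± 1.01) did not pass, with adjusted p of 0.132 to 0.46. DESeq2 called 6 of the 10. Without replicate 1 of keratinocytes alone, or either library of activated T cells, Zap70 was no longer called, and without either co-cultured keratinocyte library 7 of the 10 were. Cd4 was at -0.83 without replicate 2 of the activated T cells.

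In the co-culture itself, T cells exceeded keratinocytes by 8.28 ± 0.85 (log2) for Cd8a (adjusted p = 0.000689, edgeR) and by 8.47 ± 1.00 for Cd8b1 (adjusted p = 0.00103). Cd247 was 2.66 ± 0.80 higher (adjusted p = 0.0426), the third and last gene of the 10 called, where 6.73% of all genes were called higher. Cd3d (2.43 ± 0.90) and Zap70 (2.03 ± 0.79) missed the threshold with adjusted p of 0.0828 and 0.0935, and Cd4 was at 0.36 ± 1.00 (adjusted p = 0.829). Cd247 lost its call without replicate 1 of the co-cultured keratinocytes or without any 1 T-cell library, and also when only the 4 libraries compared were fitted (2.72, adjusted p = 0.0808, edgeR), and 9 of the 10 were called without replicate 2 of the co-cultured keratinocytes. The effect of co-culture in keratinocytes minus that in T cells, fitted as an interaction over 8 libraries, was 0.82 to 1.76 (log2) for the 10 genes with adjusted p of 0.892 to 0.961 (edgeR). None of the 10 was called and none had an unadjusted p under 0.05, where 0.576% of all genes were called and 7.06% had such a p, and DESeq2 called none of them either.

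Other genes of T-cell receptor signaling were read from a list of 45, of which 38 had exon reads to test. After 1 d in keratinocyte medium 5 of the 38 rose and none fell by edgeR, where 2.32% of all genes rose and 501 of 11863 fell. Among those that rose were Cd96 at 1.89 ± 0.40 (adjusted p = 0.0343), the diacylglycerol kinase gene Dgka at 1.66 ± 0.39 (adjusted p = 0.0455) and the costimulatory receptor Cd27 at 1.65 ± 0.30 (adjusted p = 0.0235). At an unadjusted p under 0.05, 13 of the 38 were higher and 1 lower, against 1307 and 1662 of all genes. After co-culture 7 rose and none fell, where 4.59% of all genes rose and 678 of 11863 fell. Among those that rose were the adaptor Sla2 at 2.36 ± 0.46 (adjusted p = 0.019), the Tec kinase Txk at 2.01 ± 0.40 (adjusted p = 0.0205) and the phosphatase Ptpn22 at 2.00 ± 0.33 (adjusted p = 0.0118). At an unadjusted p under 0.05, 12 of the 38 were then higher and 2 lower, against 1649 and 1766 of all genes. The median log2 difference over the list was 0.72 and 0.63 in these comparisons, and that of all genes -0.01 in both. Activated T cells exceeded keratinocytes alone in 16 of the 38 genes, where 13% of all genes were called higher, the thymocyte regulator Themis being 4.60 ± 0.90 higher (adjusted p = 0.00508, edgeR) and the inhibitory receptor Ctla4 4.05 ± 0.82 (adjusted p = 0.00579). Co-cultured T cells exceeded co-cultured keratinocytes in 17 of the 38, where 6.73% of all genes were called higher, among them Themis (4.06 ± 0.87) and Txk (3.85 ± 1.17). Between keratinocytes with and without T cells 0 of the 38 were called by edgeR, with 1 at an unadjusted p under 0.05, the ubiquitin ligase Cbl at -0.89 ± 0.29. In keratinocytes alone 35 of the 38 were higher in replicate 2, against 3029 of 7072 genes in all, and after co-culture 36, against 2764 of 6700.

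The constant genes of the T-cell receptor itself, Trac, Trbc1 and Trbc2, are listed without exons in these tables, so their RPKM is 0 in every library by construction. Reads counted over the whole gene were present, however. Trbc1 had 433 and 636 reads per 1000000 gene reads in activated T cells, 843 and 911 in keratinocyte medium, and 757 and 716 after co-culture. Keratinocytes had 47.2 and 162 such reads of Trbc1 alone and 57.8 and 328 after co-culture, with replicate 2 high in both. Per Cd3g exon read, the 3 genes together had 2.66 to 2.90 reads in keratinocyte libraries and 3.11 to 6.93 in T cells. The constant genes of the gamma-delta receptor (Trdc and the Tcrg-C genes) made up 1.70 to 2.54% of all constant gene reads in keratinocyte libraries and 0.721 to 1.31% in T cells. Trdc, which defines gamma-delta T cells, had 0 to 8 reads per keratinocyte library and 22 to 103 per T-cell library.

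**Figure D5:**
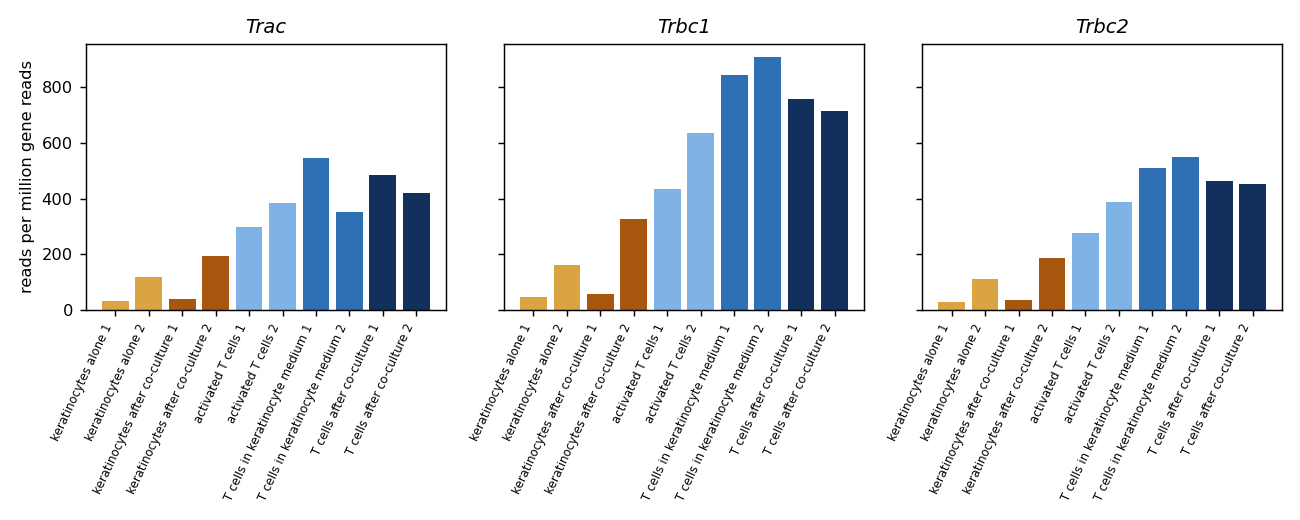
Reads per 1000000 gene reads over Trac, Trbc1 and Trbc2, 1 bar per library from 0. All 4 keratinocyte libraries have reads of each gene, with replicate 2 above replicate 1, and the T-cell libraries are higher, at 433 to 911 for Trbc1.

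Across the 10 libraries, the profile of Cd4 on the log2(RPKM + 1) scale was most like those of Gm10800 (Pearson r = 0.994), S100a4 (0.993), Lyz2 (0.990), Gm10801 (0.988) and Rln3 (0.987), of 8743 genes compared. Lyz2, a lysozyme of myeloid cells, had 6.69 and 27.4 RPKM in keratinocytes alone, 7.30 and 37.6 after co-culture, and 10.6 and 57.4 in activated T cells. It had 37.9 and 39.9 RPKM in keratinocyte medium and 31.4 and 33.6 in co-cultured T cells, so that its high and low libraries were those of Cd4. The r of Cd4 with Cd3g was 0.888, and with Cd8a it was 0.487. The mean of Cd3d, Cd3e and Cd3g had Tbc1d10c (0.995), Snx20 (0.995) and Gpsm3 (0.994) among the genes most like it, while its r with Cd247 was 0.985, with Lck 0.976 and with Cd8a 0.855. The points share libraries and 2 cell types, so these values describe the 10 libraries only.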

How the data were processed

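The 10 RNA-seq libraries were assigned to 5 groups, each with 2 libraries, by their labels. Poly(A) libraries were prepared by the authors with the NEBNext Ultra II kit, sequenced as single-end reads and mapped to GRCm38 (build per the submitters' processing notes) in the CLC Genomics Workbench. The annotation release and the strand setting are not given in the sources used here. The authors deposited, per gene, raw counts of all and of uniquely mapped exon reads, junction, intron and gene reads, and RPKM values scaled by exon length and mapped reads, written with decimal commas. Single-read depth was 12864931 to 18019609 exon reads, and 98.0 to 100.0% of the reads of each gene except Cd247 (87.2 to 98.9%) were uniquely mapped.

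Fold changes came from total exon counts under R 4.3.3 by edgeR 4.0.16, whose quasi-likelihood test followed filterByExpr and TMM, with p-values adjusted over all genes tested. The keratinocyte comparison used 4 libraries, the T-cell comparisons 6, those between cell types 10 and the interaction 8. Tested on simulated data, the edgeR script recovered 88.8 to 99.5% of the changed genes per comparison, with 4 to 11 false calls. How many differences of the size and spread seen in these libraries it would find was not tested. An exact permutation test of 2 against 2 libraries cannot go below p = 0.333, so none was used. The tests were repeated with uniquely mapped reads, with DESeq2 1.42.0, with plain library sizes, with every gene kept or only genes of at least 10 reads in all libraries, with a replicate block, with other sets of libraries, with each library omitted, and with limma 3.58.1 after adding 1 or 0.1 to the RPKM before taking log2. Named genes were the 10 members, up to 3 called genes per direction of the receptor list, the receptor constant genes and the 5 genes most like Cd4 and the CD3 mean among those with at least 5 RPKM in a group. Some genes that this rule names are not reported here. Replicate libraries differed by more than sampling noise in every group (mean chi-square per gene 94.2 to 209). The members and lists were chosen with earlier results of these data known. Of 10 members, 9 had the same coordinates in GENCODE vM21.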

Additional observations from a re-analysis of the deposited data

Results flagged for a closer look

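Reads of the T-cell receptor constant genes lay in a column that no comparison used, and they were present in keratinocytes that had been kept alone, above the limit that a count of 0 allows (3 reads). Trac had 557 and 1920 gene reads in replicates 1 and 2 of keratinocytes alone, Trbc1 872 and 2655, and Trbc2 485 and 1794. No library here was of keratinocytes known to be free of T-cell RNA, so there was no background to set these counts against. The source of these reads was not tested.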

How the results depend on the processing

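With 2 libraries per group, single libraries decided many calls. The log2 differences of Cd8a and Cd8b1 between cell types kept their direction, and stayed called, under every alternative that tested them, whereas the requirement of at least 10 reads in every library removed both. Of the differences of the 10 genes, 527 of the values under alternatives other than omission kept direction and call, 54 gained a call, 1 (Cd247 between the co-culture partners with only their 4 libraries) lost it and 10 reversed, and with a library left out these were 431, 25, 10 and 34.

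Of the 10 genes, the count called in keratinocyte medium against activated T cells (0 by edgeR as reported) was 4 with DESeq2, 5 without a filter, 1 with at least 10 reads and 1 with limma and a pseudocount of 1. For co-cultured against activated T cells it was 4 with DESeq2 and 5 without a filter. Activated T cells against keratinocytes alone (3) gave 6 with DESeq2, 5 with library sizes, 8 without a filter, 1 with at least 10 reads, 6 with limma at either pseudocount and 6 with only the 4 libraries compared. Co-cultured T cells against co-cultured keratinocytes (3) gave 5 with DESeq2, 6 without a filter, 1 with at least 10 reads and 5 with limma. Over all genes, called counts with DESeq2 were 186 for the keratinocytes, 1947, 2368 and 87 for the T-cell comparisons in the order above and co-culture against medium, and 353 for the interaction. Without a filter they were 11, 1945, 2425, 141 and 205. With at least 10 reads they were 0 for co-culture against medium, 1904 for the co-culture partners and 0 for the interaction, where the reported counts were 31, 3177 and 76. Co-culture against medium gave 99 and 107 with limma and 83 with all 10 libraries, the keratinocytes 4 with all 10, and the partners 1731 with only 4.

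Zap70 turned to -0.005 with library sizes and -0.042 with limma at both pseudocounts in keratinocyte medium, and with these settings to -0.077, -0.104 and -0.105 in co-culture, against activated T cells. Cd5 between the later T-cell groups turned to 0.006 with at least 10 reads, 0.001 with unique reads, 0.007 with all 10 libraries and 0.004 with 4. The causes were not tested.

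With 1 library left out, the genes called among the 10 ranged over 0 to 3, 0 to 3, 2 to 7 and 2 to 9 in medium and co-culture against activated T cells, activated T cells against keratinocytes alone, and the partners. All genes called ranged over 24 to 1067, 266 to 1093, 2394 to 4943 and 1614 to 3336 there, over 0 to 1164 for the keratinocytes (1164 without replicate 1 after co-culture), 16 to 52 for co-culture against medium and 21 to 105 for the interaction. Log2 differences then ranged, for the keratinocytes, over Cd3d -1.19 to 2.06, Cd3e -0.90 to 2.07, Cd3g -0.88 to 2.23, Cd247 -0.97 to 1.95, Cd4 -0.90 to 2.29, Lck -1.03 to 2.23, Zap70 -1.02 to 1.98, Cd5 -0.99 to 2.23. For the interaction they ranged over Cd3d -1.18 to 2.12, Cd3e -0.77 to 2.25, Cd3g -0.89 to 2.28, Cd247 -0.78 to 2.19, Cd4 -0.81 to 2.42, Lck -0.84 to 2.47, Zap70 -1.05 to 1.99, Cd5 -1.04 to 2.23. For co-culture against medium they ranged over Cd3d -0.29 to 0.19, Cd3e -0.52 to 0.24, Cd3g -0.20 to 0.10, Cd8a -0.26 to 0.19, Cd8b1 -0.64 to 0.33, Cd4 -0.307 to 0.031, Zap70 -0.047 to 0.011, Cd5 -0.114 to 0.093. Cd4 ranged over -0.39 to 2.30 and -0.53 to 2.16 in medium and co-culture against activated T cells, -0.83 to 2.39 against keratinocytes alone and -0.45 to 2.24 between the partners.

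Replicate numbers are shared by both keratinocyte groups and the activated T cells. The log2 difference of replicate 2 to replicate 1 correlated across 12222 genes between keratinocytes alone and co-cultured (r = 0.646), and with activated T cells (0.31 and 0.409), a hint from the data and not from the design. With a replicate block the keratinocytes gave 2 called genes of all and 0 of the 10, Cd4 being at 0.75 (adjusted p = 0.21, edgeR) and Cd8b1 at 1.96 (adjusted p = 0.279). Activated T cells against keratinocytes alone gave 9 of the 10 with a replicate block and only these 4 libraries, all but Cd4. Within replicate 1 the 8 genes other than Cd8a and Cd8b1 were 1.05 to 1.34 times as high after co-culture, and within replicate 2 1.42 to 1.96 times. Cd8a was 4.46 (counting interval 1.88 to 12.2) and 1.94 times (1.24 to 3.07) as high, and Cd8b1 7.49 (2.19 to 39.7) and 2.30 times (1.36 to 3.99).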
